A study of Mus musculus with 2 samples.

Results

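The 10 genes described here encode the beta-type phospholipases C and the enzymes that supply their substrate and remove one of their products: Plcb1, Plcb2, Plcb3, Plcb4, Pip5k1a, Pip5k1b, Pip5k1c, Pi4ka, Inpp5a and Itpka. They were picked by symbol for their known roles and make up 10 of the 43346 mouse genes in the deposited tables. Expression was measured by RNA-seq in 2 libraries, each from a pool of 50 Purkinje cells cut out by laser capture from the cerebellum of male wild-type C57Bl6 mice aged 8 months, with the strain also given as B6NCrl. RNA longer than 200 nt was sequenced and synthetic spike-in RNAs were added. Replicates 1 and 2 of the single labelled group are written as pool 1 and pool 2, and there was no treatment, mutant or other condition to compare. Both pools carry the same donor identifier, so the labels do not establish separate animals, and a Smart-seq protocol is linked for pool 2 while the preparation of pool 1 was not given in the sources used here. No test between conditions was possible, and the values below describe these 2 pools and the spread between them.

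Beta-type phospholipases C sit at the inner face of the plasma membrane and are switched on by G proteins of the Gq family. They split the lipid PI(4,5)P2 into the soluble messenger IP3, which opens calcium channels of the endoplasmic reticulum, and diacylglycerol, which stays in the membrane. The substrate is made from phosphatidylinositol by a PI 4-kinase and then a type I PIP kinase, and IP3 is removed by a 5-phosphatase or by a 3-kinase. In Purkinje cells this pathway is driven by glutamate released at parallel fibre synapses. PLCB4 and PLCB3 proteins are known in mouse cerebellum from alternating stripes of Purkinje cells, PLCB4 where zebrin II (aldolase C) is absent and PLCB3 where it is present.

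Of the 15 Plcb4 transcript models that the authors quantified, the ones with the highest shares of the gene differ in their coding ends. These ends are shown because the split of reads between these models differed between the pools. The model ENSMUST00000147744 carries a 37 nt exon at chr2:136010936-136010972 (GRCm38, plus strand) that the complete model ENSMUST00000110109 lacks. The sequences run from the shared 87 nt exon to the stop codon, were taken from GENCODE M21 transcripts and span chr2:136007823-136013054 and chr2:136007823-136013034 with introns removed, and the capitals mark the 37 nt exon.
Plcb4 with the small exon: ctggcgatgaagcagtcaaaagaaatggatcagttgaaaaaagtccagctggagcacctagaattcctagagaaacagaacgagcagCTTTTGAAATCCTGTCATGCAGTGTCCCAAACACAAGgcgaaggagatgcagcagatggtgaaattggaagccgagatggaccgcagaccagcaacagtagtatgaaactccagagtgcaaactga
Plcb4 without the small exon: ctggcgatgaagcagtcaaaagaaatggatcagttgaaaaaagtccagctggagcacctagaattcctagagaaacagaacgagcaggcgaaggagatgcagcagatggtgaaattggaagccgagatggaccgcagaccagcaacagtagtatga
Because 37 is not a multiple of 3, the last exon is read in a different frame in each form. After the shared exon the coding sequence ran for 41 codons with the small exon and for 22 codons without it.

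A pair of other members also have models with alternative coding ends, and the shares of these ends are given with each gene below. The known long form of Plcb1, called beta 1a, ends in 225 coding nt at chr2:135472053-135472277, and the form called beta 1b ends in 96 coding nt at chr2:135399249-135399344. In the next sequences, 30 nt of the exon before the split are in lower case, and capitals mark the coding end of each form with its stop codon.
Plcb1 beta 1a end: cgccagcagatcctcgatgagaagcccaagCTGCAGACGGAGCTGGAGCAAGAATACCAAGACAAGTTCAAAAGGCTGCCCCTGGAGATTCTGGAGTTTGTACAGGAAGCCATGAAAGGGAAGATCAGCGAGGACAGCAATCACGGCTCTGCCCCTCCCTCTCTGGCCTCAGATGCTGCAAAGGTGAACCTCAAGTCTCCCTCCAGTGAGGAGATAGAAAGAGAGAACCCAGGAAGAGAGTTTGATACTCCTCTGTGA
Plcb1 beta 1b end: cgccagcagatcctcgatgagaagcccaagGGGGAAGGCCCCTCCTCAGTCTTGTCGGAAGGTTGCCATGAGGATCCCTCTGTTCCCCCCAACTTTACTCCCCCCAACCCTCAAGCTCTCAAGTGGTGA
For Pip5k1c, a 78 nt coding exon at chr10:81317326-81317403 (plus strand) adds 26 codons at the end of the protein, and this tail is known to bind the adhesion protein talin. It is shown in capitals after 30 nt of the coding exon before it.
Pip5k1c tail exon: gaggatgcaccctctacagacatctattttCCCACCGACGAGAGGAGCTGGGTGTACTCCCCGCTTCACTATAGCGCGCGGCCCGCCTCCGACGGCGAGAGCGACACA
These sequences also came from GENCODE M21 on GRCm38.

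The libraries held 23830685 expected counts in pool 1 and 27907662 in pool 2, and spike-ins took 1.40% and 0.940% of them. Over 12495 genes with a TPM (the deposited level, corrected for transcript length and scaled to a common total) of 1 or more in both libraries, the median log2 ratio of TPM + 1, pool 1 over pool 2, was 0.07 with an SD of 0.36. This ratio moved with transcript length, with a median of -0.13 for genes at 10 TPM or more with a mean transcript length under 1000 nt and 0.36 for those of 4000 nt or more. All 9 genes of the Purkinje cell marker list were detected, with summed levels of 15049 TPM in pool 1 and 12838 TPM in pool 2, and 8 of them were higher in pool 1, with a median log2 ratio of 0.48. Markers of other cells were present too: the 9 Bergmann glia and astrocyte genes were all detected and summed to 2275 and 1946 TPM, and the 7 oligodendrocyte genes to 223 and 216 TPM. Of 8 granule cell genes 6 were detected (summed level 112 and 143 TPM), of 6 molecular layer interneuron genes 6 (53.8 and 71.2 TPM), of 6 microglia genes 3 (15.9 and 20.9 TPM) and of 4 endothelial genes 4 (70.1 and 98.2 TPM). The 4 blood genes summed to 649 TPM in pool 1 and 2273 TPM in pool 2, and no marker gene of any list was at 0 in both pools. The levels below are therefore those of the captured material, and fewer cells of a type cannot be told apart from less RNA per cell.

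Of the 10 members, 9 were detected, that is at 1 TPM or more in each pool, against 51.7% of the 21474 protein-coding genes and 28.8% of all 43346 mouse genes. The exception was Plcb2. The levels fell into 3 tiers: Plcb4, Inpp5a and Itpka were above 100 TPM in both pools, Pi4ka, Plcb1 and Pip5k1b lay between 21.58 and 62.99 TPM, and Plcb3, Pip5k1c and Pip5k1a lay between 6.55 and 11.76 TPM. The median of the 10 mean levels was 24.5 TPM, beside 12.3 TPM over detected protein-coding genes. In the order of mean TPM, neighbouring ranges over the pools overlapped for Plcb4 and Inpp5a and for Plcb3 and Pip5k1c, so those neighbours did not differ beyond the spread between the pools. The other 7 neighbouring pairs were separate in both pools by TPM.

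**Figure D1:**
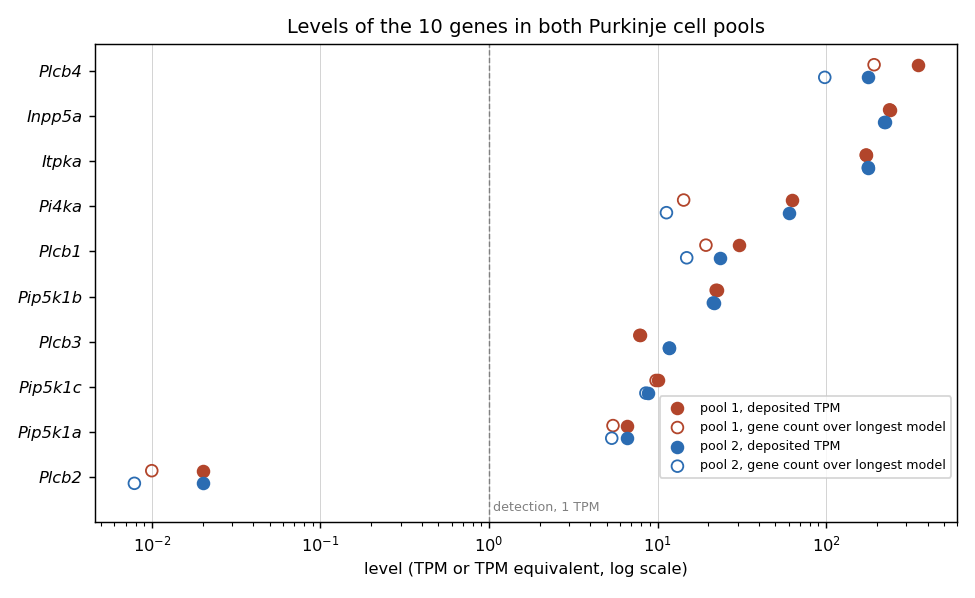
Level of each member in pool 1 (red) and pool 2 (blue) on a log scale, in order of mean TPM. Filled circles are deposited TPM and open circles the gene's count divided by the length of its longest model on the same scale. 9 genes lie right of the detection line at 1 TPM and Plcb2 lies at 0.02 TPM, and the open circles fall well left of the filled ones for Pi4ka and Plcb4.

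The TPM of a gene depends on which of its models the reads were assigned to, since short models turn the same reads into a higher level. A second level, the gene's expected count divided by the length of its longest quantified model and put on the TPM scale, was therefore set beside it. For Pi4ka the mean TPM was 4.81 times this second level, for Plcb4 1.82 times and for Plcb1 1.57 times. For Inpp5a, Itpka, Plcb3, Pip5k1b and Pip5k1c the measures differed by less than 3%. On the second level Inpp5a came first with 238 in pool 1 and 222 in pool 2, Itpka followed with 173 and 178, and Plcb4 came next at rank 3 with 193 and 98.2. Then came Pip5k1b with 22.3 and 21.4, Plcb1 with 19.4 and 14.9 and Pi4ka with 14.3 and 11.3, the reverse of their order by TPM. The order and the tiers above therefore hold for TPM only. The rank of Plcb4 turned with the length used and with the pool, since by TPM alone it already lay under Inpp5a and Itpka in pool 2.

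Among the phospholipases C, Plcb4 (chr2:135659011-136014593, plus strand), which encodes the beta isozyme best known from Purkinje cells, was the most abundant of the 15 genes in both pools. It had 352.40 TPM in pool 1 and 177.34 TPM in pool 2, from 19573 and 12654 expected counts (264.87 ± 124 TPM, SD, n = 2). Pool 1 was the high one, by 1.99-fold, and the exact Poisson intervals of 347 to 357 TPM in pool 1 and 174 to 180.5 TPM in pool 2 were far apart. Those intervals cover counting error only. Plcb4 ranked 471 of 21474 protein-coding genes by mean TPM.

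Plcb1 (chr2:134786067-135475258, plus strand), the beta isozyme common in forebrain neurons, had 30.46 TPM in pool 1 and 23.49 TPM in pool 2 (27.0 ± 4.93 TPM). It lies next to Plcb4 on chromosome 2, with 183752 nt between the genes and 1 annotated gene, Platr3, in that gap. Its level was far under that of Plcb4 in each pool, and both genes were higher in pool 1.

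Plcb3 (chr19:6952325-6976470, minus strand), a more widely expressed beta isozyme, had 7.85 TPM in pool 1 and 11.76 TPM in pool 2, from 639 and 1214 expected counts (9.80 ± 2.76 TPM). Pool 2 was the high one, the opposite of Plcb4 and Plcb1. Its Poisson intervals were 7.25 to 8.48 TPM in pool 1 and 11.1 to 12.4 TPM in pool 2. Plcb2 (chr2:118707517-118728438, minus strand), the isozyme known from blood cells and taste cells, had 1 expected count and 0.02 TPM in each pool. Both values lie under the level of 3 counts, which is 0.06 TPM for this gene, so no fold was formed, and the single reads were assigned to different models. The blood markers summed to 649 and 2273 TPM, but all are haemoglobin genes, so they set no expected level for Plcb2.

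As a share of the summed TPM of the 4 beta isozymes, Plcb4 made up 90.2% in pool 1 and 83.4% in pool 2 (86.8 ± 4.79%, SD, n = 2). Plcb1 took 7.80% and 11.05%, and Plcb3 took 2.01% and 5.53%. The share of Plcb4 in expected counts was lower, at 85.6% and 76.9%, since counts are not divided by length. Over all 15 phospholipase C genes the share of Plcb4 in TPM was 82.3% in pool 1 and 71.7% in pool 2. Of the 11 other phospholipases C, 7 were detected, with mean levels up to 9.65 TPM. The 3 highest were Plcd4 with 10.54 and 8.76 TPM, Plcd3 with 7.77 and 9.93 TPM and Plce1 with 5.50 and 4.54 TPM.

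The reads of Plcb4 were divided over 13 of its 15 models, and the split differed between the pools. The model with the small exon, ENSMUST00000147744, is 2307 nt long, holds 9 exons and is annotated with an incomplete start. It made up 36.91% of the Plcb4 level in pool 1 and 56.54% in pool 2. The complete model ENSMUST00000110109, with 37 exons, 5217 nt and 1175 codons, made up 33.89% and 28.69%. Which model led turned with the measure: by expected counts the complete model held 62.0% of the gene in pool 1 and 51.8% in pool 2, and the shorter model with the small exon held 29.1% and 44.0%. The share of the model with the small exon was lower in pool 1 by either measure.

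Most of the difference between the pools in Plcb4 lay outside the model with the small exon. In CPM (expected counts scaled to the same library total), that model had 239 in pool 1 and 200 in pool 2, a ratio of 1.198. The complete model had 509 and 235 CPM, a ratio of 2.17. The 11 remaining models with reads had 73.2 and 18.9 CPM together, a ratio of 3.87. Before scaling for the larger library of pool 2, the expected counts on the model with the small exon were 5699 in pool 1 and 5572 in pool 2. Those on the complete model were 12129 in pool 1 and 6554 in pool 2.

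Among the remaining models, ENSMUST00000127044, a processed transcript of 669 nt from the middle of the gene, had 10.10% in pool 1 and was listed at 0 in pool 2. The retained-intron model ENSMUST00000137969 had 6.27% and 3.53%, and the processed transcript ENSMUST00000139480, whose 2 exons lie at the start of the gene, had 4.66% and 5.66%. ENSMUST00000127729 had 2.32% and 1.51%, and ENSMUST00000147122 had 1.70% and 2.24%. These short models are annotated without a coding sequence.

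**Figure D2:**
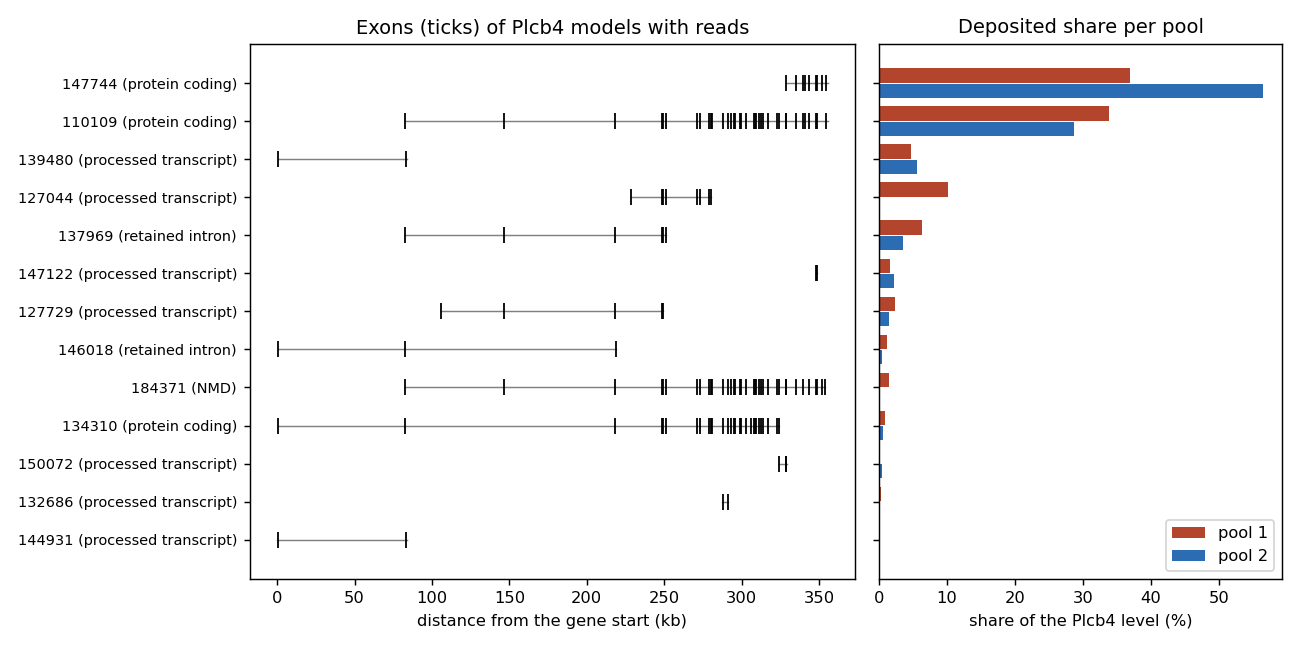
Left, exons (ticks) of the 13 Plcb4 models with reads by distance from the gene start in kb, named by the last digits of their identifiers with the annotated type. Right, the deposited share of the Plcb4 level in percent for pool 1 (red) and pool 2 (blue). The model with the small exon, at the top, lies at the 3-prime end of the gene and has 36.91% in pool 1 and 56.54% in pool 2.

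The assignment between the leading models has a measured limit. Of the 2307 nt of ENSMUST00000147744, 2270 nt are shared with the complete model, so few reads can separate them. The small exon is in 2 of the 15 models, and the other one, ENSMUST00000184371, named here for that exon after its values were seen, had 1.48% in pool 1 and was listed at 0 in pool 2. No complete coding model with this exon was among those quantified. Models with an incomplete start made up at least 10% of the level in 399 other genes whose mean level was 10 TPM or more. There the difference, pool 1 minus pool 2, had a median of -1.14 percentage points with an SD of 8.87, and 3.76% of those genes were as low as Plcb4 at -19.6 points. The part of read coverage along the gene in this split was not tested.

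Plcb1 had 5 models, and the long form beta 1a led among its coding models. ENSMUST00000110116, the beta 1a form of 1216 codons, made up 50.8% of the Plcb1 level in pool 1 and 51.6% in pool 2. ENSMUST00000070724, the beta 1b form of 1173 codons, made up 5.21% and 2.40%. Another model, ENSMUST00000131552, had 4.67% and 3.26%, and its quantified length of 661 nt differs from that in GENCODE M21, so its end was not assigned. A retained-intron model of 1785 nt, ENSMUST00000130524, made up 39.3% and 41.6%. In expected counts the beta 1a form had 2120 and 2107, against 118 and 53.3 for the beta 1b form. The shares of beta 1a and of the retained-intron model differed between the pools by under 3 percentage points. Plcb3 was quantified as a single model.

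The PI 4-kinase Pi4ka (chr16:17280351-17406314, minus strand), which makes PI4P at the plasma membrane, had 62.99 TPM in pool 1 and 60.03 TPM in pool 2 (61.5 ± 2.09 TPM). The pools lay close together. Much of this level came from short models. A 669 nt model, ENSMUST00000148110, took 58.2% and 64.8% of it, a 1504 nt model, ENSMUST00000127121, took 23.8% in each pool, and the 6630 nt model ENSMUST00000154364 took 10.4% and 6.37%. The long model alone stood at 6.58 TPM in pool 1 and 3.82 TPM in pool 2. Most Pi4ka models that were quantified are not in GENCODE M21, so their structure was not examined. The gene's expected counts, 1852.1 and 1857.01, were fractional, as happens where reads are divided between genes. Those of Plcb1 and Inpp5a were fractional too, and the number of reads so divided was not given by these values.

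This matters for the order within the PI 4-kinases. By TPM, Pi4ka made up 53.4% of the 4 genes in pool 1 and 52.9% in pool 2, and Pi4k2a, a type II PI 4-kinase of endosomes and the Golgi, made up 40.4% and 43.6%. By the count over the longest model, Pi4ka made up 21.1% and 17.7%, and Pi4k2a 70.4% and 77.5%. Which of the pair was higher therefore turned with the length used.

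The type I PIP kinases convert PI4P to PI(4,5)P2. Pip5k1b (chr19:24294794-24555872, minus strand) had 22.55 TPM in pool 1 and 21.58 TPM in pool 2. Pip5k1c (chr10:81292963-81319973, plus strand), the isoform known for presynaptic PI(4,5)P2, had 10.11 and 8.75 TPM. Pip5k1a (chr3:95058530-95106930, minus strand) had 6.57 and 6.55 TPM. The order was the same in both pools and none of the 3 ranges overlapped.

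Pip5k1b made up 57.5% of the summed TPM of the 3 type I kinases in pool 1 and 58.5% in pool 2 (58.0 ± 0.730%, SD, n = 2). Pip5k1c made up 25.8% and 23.7%, and Pip5k1a made up 16.7% and 17.8%. The summed level was 39.2 TPM in pool 1 and 36.9 TPM in pool 2. The sum of the type I kinases was thus under that of Pi4ka by TPM, and well above it by the count over the longest model, where Pi4ka stood at 14.3 and 11.3.

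The main Pip5k1c model in both pools lacked the tail exon shown above. ENSMUST00000163075, with 635 codons, made up 80.8% of the Pip5k1c level in pool 1 and 84.5% in pool 2. The tail exon is in 4 of the 10 models, which together made up 18.6% in pool 1 and 15.5% in pool 2, from 155 and 142 expected counts. Most of that was ENSMUST00000161854, a model annotated as a target of nonsense-mediated decay, with 18.6% and 10.9%. Of the complete coding models with the exon, that of 687 codons, ENSMUST00000045469, was listed at 0 in pool 1 and had 4.56% in pool 2, and that of 661 codons was listed at 0 in both pools.

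Pip5k1b was nearly a single model, ENSMUST00000025800, with 93.4% in pool 1 and 95.2% in pool 2. In Pip5k1a the model ENSMUST00000005768 of 545 codons led with 63.7% and 68.8%. A model of 546 codons, ENSMUST00000107236, had 20.0% in pool 1 and was listed at 0 in pool 2, while a model of 547 codons, ENSMUST00000107233, was listed at 0 in pool 1 and had 13.4% in pool 2. These models differ in few codons, and the gene total hardly differed between the pools. A processed transcript, ENSMUST00000107229, had 12.7% and 14.8%.

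Both enzymes that remove IP3 were abundant and, by TPM, even between the pools. Inpp5a (chr7:139389109-139579652, plus strand), the 5-phosphatase that acts on soluble IP3, had 240.17 TPM in pool 1 and 223.98 TPM in pool 2 (232 ± 11.4 TPM, SD, n = 2). It made up 62.8% and 65.8% of the summed TPM of 10 inositol polyphosphate 5-phosphatase genes. One model, ENSMUST00000106098 with 412 codons, took 97.2% and 95.3% of its level.

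Itpka (chr2:119742337-119751263, plus strand), the IP3 3-kinase that also binds actin in dendritic spines, had 173.02 TPM in pool 1 and 178.06 TPM in pool 2 (175.5 ± 3.56 TPM). Pool 2 was higher by 1.03-fold. Of the summed TPM of the 3 IP3 3-kinase genes, Itpka took 97.4% and 97.2%. Its paralogs Itpkb and Itpkc stood at 3.27 and 3.36 TPM and at 1.41 and 1.84 TPM. Each pool thus held one dominant gene for each route of IP3 removal. The coefficient of variation of TPM between the pools was 4.93% for Inpp5a and 2.03% for Itpka, against 46.7% for Plcb4.

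Between the pools, 7 of the 9 detected members were higher in pool 1 and 2 were lower, beside 58.7% of all detected genes that were higher in pool 1. At a threshold of 1.5-fold on the log2(TPM + 1) scale, which understates the differences of low genes, 1 member, Plcb4, was higher in pool 1 and none was lower. In that direction 6.19% of detected genes passed the threshold, and 3.16% passed it in the other. With 1 library on each side there was no replicate check of such a difference. The common biological coefficient of variation between the pools, as estimated by edgeR over 14863 genes, was 19.3%. The median log2 ratio of the detected members was 0.07, as it was over all detected genes.

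The log2 ratio of Plcb4 was 0.99, against a median of 0.22 among 186 other genes at 100 TPM or more with mean transcript lengths of 2000 to 4000 nt. None of those 186 genes was as high. When genes were classed by their longest model, 0.649% of 154 genes were as high. Plcb1 had a log2 ratio of 0.36, and its class of long genes by mean length had a median of 0.35, close to its own ratio. By the longest model the class median was 0.26, and 37.0% of 1564 genes were as high as Plcb1. Plcb3 had a log2 ratio of -0.53 in a class of 1469 genes with a median of 0.20, of which 1.02% were as low, and by the longest model 2.32% of 2243 genes were. The other 6 detected members had log2 ratios between -0.04 and 0.19.

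**Figure D3:**
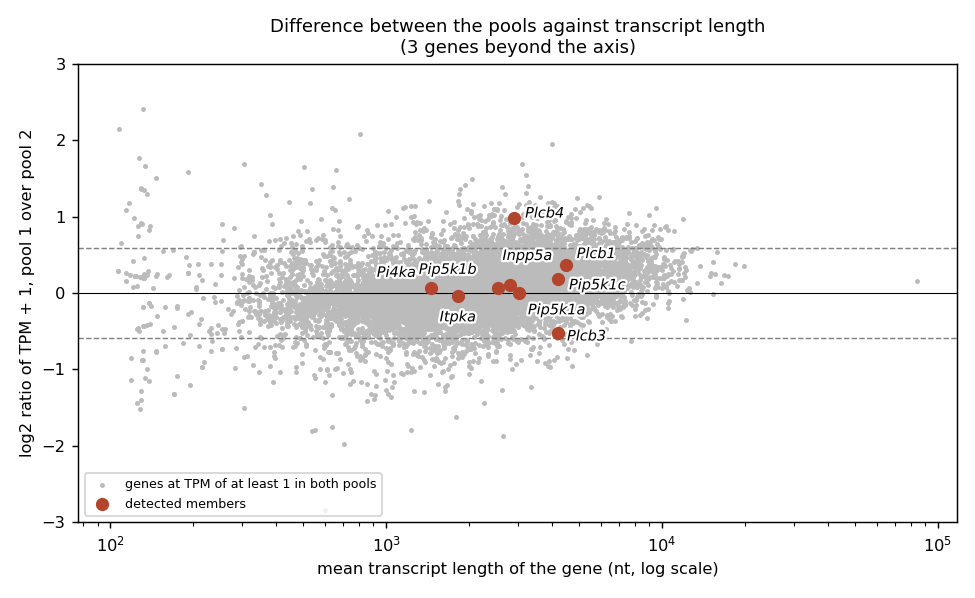
Log2 ratio of TPM + 1, pool 1 over pool 2, against mean transcript length on a log scale for 12495 detected genes (grey), with the 9 detected members in red and dashed lines at 1.5-fold. Plcb4 lies above the upper line at 0.99 and Plcb3 just above the lower one at -0.53, and 3 genes lie beyond the axis.

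The scale between the pools bears on these ratios. On the spike-ins, which were 0.68 higher in pool 1 as a median log2 ratio over 28 of them, the median of all detected genes became -0.61. On that scale the log2 ratio of Plcb4 was 0.31, under 1.5-fold, that of Plcb3 was -1.20, and 5 of the 9 detected members were at least 1.5-fold lower in pool 1, namely Plcb3, Pi4ka, Pip5k1a, Pip5k1b and Itpka. Of all detected genes 52.6% were as low on that scale, so this count was near the background. In 6 of the 9 members a ratio above 0 by TPM became one below 0. The log2 ratio of Inpp5a, even by TPM, was -0.58 on the spike-in scale, and that of Itpka was -0.72. With TMM scaling or DESeq2 size factors of the counts, 2 members passed 1.5-fold, Plcb4 higher and Plcb3 lower in pool 1. With TMM 5.85% of detected genes were as high and 6.32% as low, and with DESeq2 size factors 5.99% and 6.21%.

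Markers of Purkinje cell stripes differed between the pools together with Plcb4 and Plcb3. Aldoc, which encodes zebrin II, had 2409 TPM in pool 1 and 5861 TPM in pool 2. The glutamate transporter gene Slc1a6 had 69.9 and 104 TPM, and Kctd12 had 40.5 and 96.3 TPM. All 3 genes of the zebrin-positive list were lower in pool 1, with summed levels of 2520 and 6062 TPM and a median log2 ratio of -1.23. The 2 genes of the zebrin-negative list were higher in pool 1, Nefh with 88.9 and 66.2 TPM and Ebf2 with 24.5 and 16.6 TPM, and summed to 113 and 82.8 TPM. Their log2 ratios were 0.42 and 0.53. The part of the stripe origin of the captured cells in the differences of Plcb4 and Plcb3 was not tested. Nor was that of the library preparation, which cannot be told apart from the pool.

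**Figure D4:**
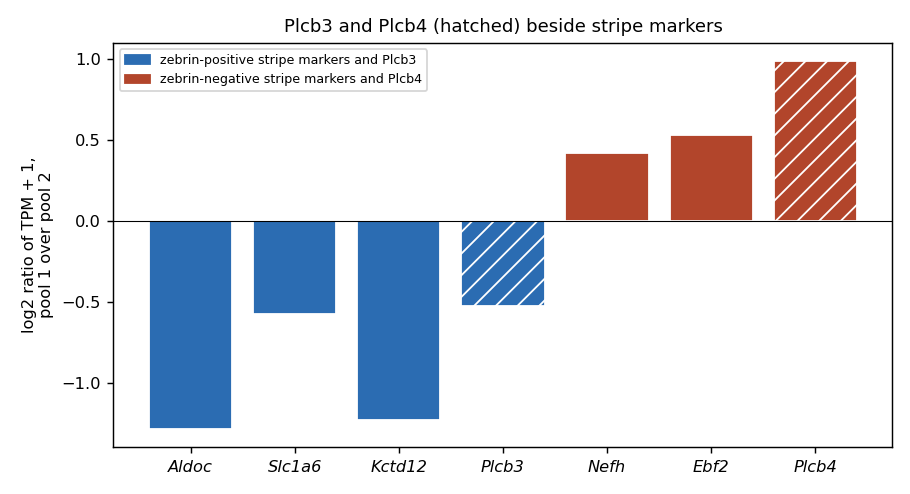
Log2 ratio of TPM + 1, pool 1 over pool 2, for 3 markers of zebrin-positive Purkinje cells with Plcb3 (blue) and 2 markers of zebrin-negative cells with Plcb4 (red), the phospholipase genes hatched. Bars under 0 are lower in pool 1, from -0.53 for Plcb3 to -1.28 for Aldoc, and bars over 0 are higher, from 0.42 for Nefh to 0.99 for Plcb4.

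Overlapping genes limit some counts, since the strand setting was not given in the sources used here. Exons of Plcb1 share 178 nt with 9630028H03Rik on the opposite strand (8.67 and 2.43 TPM), those of Inpp5a share 246 nt with Nkx6-2 (1.16 and 0.62 TPM), and those of Pi4ka share 60 nt with Snap29 (7.04 and 5.63 TPM). Plcb3 and the neighbouring Ppp1r14b share no exon position in the quantified models, although Ppp1r14b stood at 66.4 and 116 TPM.

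Of 87 further genes of the pathway in 9 roles, 72 were detected, or 82.8%. Of the detected ones 53, or 73.6%, were higher in pool 1, and 8, or 11.1%, were at least 1.5-fold higher, while none was at least 1.5-fold lower. Their median log2 ratio was 0.22. Over all detected genes these shares were 58.7% and 6.19%, and the median was 0.07. The median transcript length of the 72 genes was 3427 nt, against 2192 nt over all detected genes, and the part of length in their ratios was not tested.

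**Figure D5:**
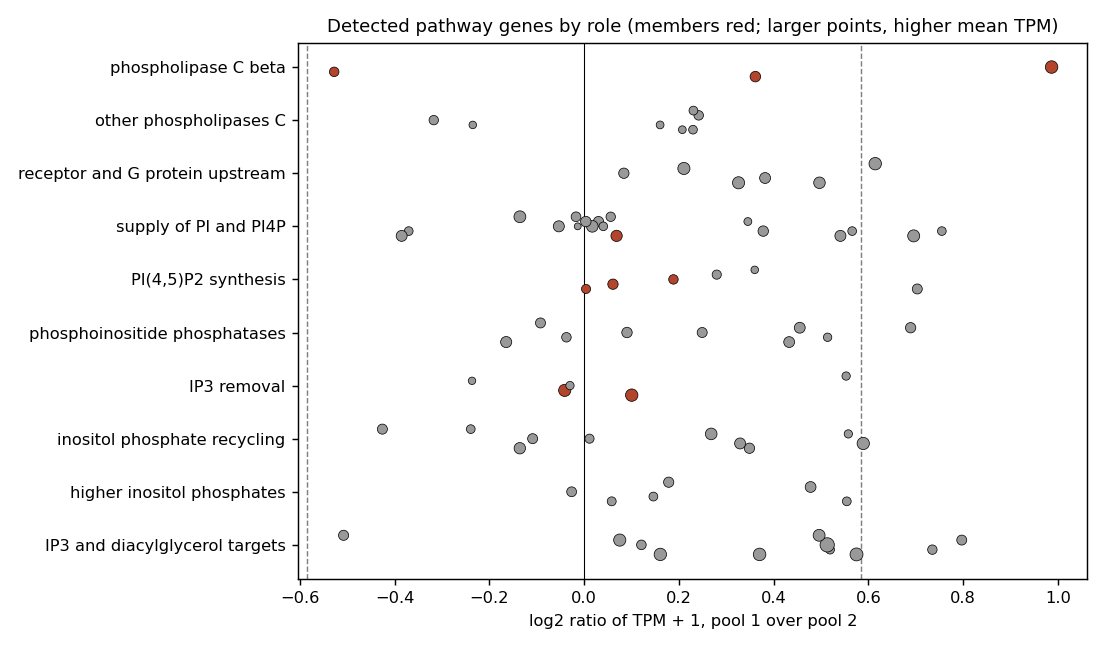
Log2 ratio of TPM + 1, pool 1 over pool 2, of the 81 detected pathway genes by role, members in red and the others in grey, with point size growing with mean TPM and dashed lines at 1.5-fold. Points lie mostly right of 0 in every role except IP3 removal, and of the members Plcb4 alone lies right of the upper line.

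Upstream of the phospholipases, 6 of 9 genes were detected and all 6 were higher in pool 1. Rgs8, a brake on Gq and Gi signalling, had 292.85 TPM in pool 1 and 190.95 TPM in pool 2 and passed 1.5-fold. Rgs7bp, a membrane anchor for RGS proteins, had 178 and 154 TPM, and Homer3, a scaffold protein of dendritic spines, had 184 and 147 TPM. The G protein gene Gnaq, named here for its place in the pathway after its values were seen, had 46.8 and 35.7 TPM.

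In the supply of phosphatidylinositol and PI4P, 17 of 19 further genes were detected and 11 were higher in pool 1. Efr3a, the palmitoylated protein that anchors the Pi4ka complex at the plasma membrane, had 178.59 TPM in pool 1 and 109.89 TPM in pool 2, above 1.5-fold. The log2 ratio of Pi4ka was 0.07 by TPM, 0.25 with TMM scaling or DESeq2 size factors and 0.31 by the count over the longest model, all under 1.5-fold. On the spike-in scale the ratio of Pi4ka was -0.61, past 1.5-fold in the other direction. Cdipt, which makes phosphatidylinositol, had 115 and 126 TPM, and the phosphatidylinositol transfer protein gene Pitpna had 97.2 and 96.0 TPM. Beside the type I kinases, the type II kinase Pip4k2c had 19.40 and 11.53 TPM and also passed 1.5-fold, and Pip4k2a and Pip4k2b had 7.85 and 6.29 TPM and 2.17 and 1.47 TPM.

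Of 11 phosphoinositide phosphatases 9 were detected. Inpp5f, a Sac-domain phosphatase of endosomes, had 47.5 and 53.4 TPM, Sacm1l, which acts on PI4P, had 45.8 and 33.1 TPM, and Synj1, the synaptic PI(4,5)P2 phosphatase, had 42.7 and 31.4 TPM. Inpp5b, a 5-phosphatase related to Ocrl, had 27.44 TPM in pool 1 and 16.64 TPM in pool 2 and passed 1.5-fold. By the count over the longest model its levels of 13.6 and 10.4 gave a log2 ratio of 0.38 without a pseudocount, under 1.5-fold.

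IP3 removal had 1 more enzyme beside the 3-kinases, the multikinase gene Ipmk with 4.12 and 2.49 TPM. In the recycling of inositol phosphates 10 of 11 genes were detected. Inpp4a, a 4-phosphatase of PI(3,4)P2, had 240.20 TPM in pool 1 and 159.34 TPM in pool 2, just past 1.5-fold on this scale and just under it by the count over the longest model, with a log2 ratio of 0.58. The monophosphatase gene Impa1 had 102 and 84.3 TPM, and Inpp1, which acts on inositol bisphosphates, had 66.0 and 72.6 TPM. Among makers of higher inositol phosphates 6 of 7 were detected, led by Ip6k2 with 41.98 and 29.9 TPM, Ppip5k1 with 20.8 and 18.2 TPM and Ip6k1 with 13.0 and 13.2 TPM.

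Targets of IP3 and diacylglycerol stood highest of the 10 roles by median level, and 11 of 12 were detected. Car8, whose protein binds the IP3 receptor, had 3440 TPM in pool 1 and 2410 TPM in pool 2. Itpr1, the main IP3 receptor of Purkinje cells, had 547 and 367 TPM. Prkca, a protein kinase C, had 19.19 and 10.62 TPM and passed 1.5-fold. Of these 11 genes 10 were higher in pool 1, with a median log2 ratio of 0.50, while Inpp5a and Itpka, which remove the same messenger, had 0.10 and -0.04. The Purkinje cell markers, which share Car8 and Itpr1 with this role, had a median of 0.48, and the part of Purkinje cell content in these ratios was not tested.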

How the data were processed

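RNA-seq of 2 pools of laser-captured Purkinje cells was used as deposited. Genes and transcripts were quantified by the authors on mm10 with GENCODE M4, per the file headers and notes. The aligner, quantifier, versions and strand setting are not stated in the sources used here. An expected count, as deposited, is an estimated number of reads and is fractional where reads were divided. TPM was computed by the authors over all entries including spike-ins. For transcript models the percent of the gene's TPM was taken as deposited.

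Symbols, coordinates and transcript sequences came from GENCODE M21 on GRCm38. Detected genes had 1 TPM or more in each pool, and ratios used a pseudocount of 1 TPM. The log2 ratios of Inpp5b and Inpp4a by the count over the longest model used none. The second level divided the gene's expected count by its longest quantified model. Poisson intervals are exact at 95% on rounded counts, the lower limit of reading is 3 counts, and neither covers more than counting error, because amplified reads are not independent molecules. edgeR 4.0.16 (common dispersion, TMM) and DESeq2 1.42.0 size factors were run in R 4.3.3 on rounded counts and tested on simulated data, and the rest in Python 3.11.15 with pandas 2.3.3, scipy 1.17.1 and matplotlib 3.10.9. No comparison of conditions was possible and no p-value was computed.

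The members, the pathway list of 97 genes and the marker lists were chosen with earlier results of these data known. Named are all members, in each role the 3 further genes with the highest mean TPM and those past 1.5-fold at a mean TPM of at least 10, and transcripts at a mean share of at least 1% for Plcb4 and 5% for other members. Alternatives were other thresholds, pseudocounts, scalings and length corrections and each pool alone. The gene count over the longest model, and the order of levels in each pool alone, were added after the data were seen. Entries with numeric identifiers were left out, and some genes that the naming rule covers, and 1 marker list, are not reported here.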

Additional observations from a re-analysis of the deposited data

How the results depend on the processing

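Over 26 results and 137 alternatives, 93 values stayed within 1.5 times the count, or within the spread between the pools or the counting error, and 44 moved further. A level or share from 1 pool alone always lies within the SD of the 2 pools around their mean. Such alternatives could not move and are among the 93, so they say nothing about stability. The ratio of Plcb4, the 1 member past 1.5-fold by TPM, kept its sign. On the spike-in scale 6 of the 9 detected members turned from a positive to a negative ratio. The number of members detected was 9 under all 5 alternatives. Plcb4 had rank 3 in pool 2 alone and rank 3 by the count over the longest model, instead of rank 1. The mean share of Plcb4 among the beta isozymes was 81.2% in expected counts, and each pool alone gave 83.4% to 90.2%. The model with the small exon made up a mean of 36.6% of Plcb4 by expected counts, under the complete model, against 46.7% by TPM. The mean share of Pip5k1b among the type I kinases was 48.3% in expected counts and 60.03% by the count over the longest model. The log2 ratio of Plcb4 was 0.88 with TMM scaling, 0.88 with DESeq2 size factors, 0.76 as the difference from genes of similar length and level, and 0.31 on the spike-in scale. The number of members past 1.5-fold was 2 with TMM scaling, 2 with DESeq2 size factors, 2 as the difference from genes of similar length and level, 5 on the spike-in scale and 0 at a fold of 2. The cause of these shifts was not tested. No paired analysis was possible because the labels form 1 group. With 2 libraries the spread rests on a single difference, and no ratio was formed for Plcb2, with 1 count in each pool.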
